A study of Mus musculus with 10 samples.

Results

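The genes described here encode the subunits of the proteasome. They were taken as the protein-coding genes whose symbol starts with Psma, Psmb, Psmc or Psmd followed by a digit, which gave 40 of the 21887 protein-coding genes on the nuclear chromosomes of the RefSeq table for GRCm38.p6, whose positions are those of mm10. The study mapped N6-methyladenosine (m6A) and the RNAs bound by its nuclear reader YTHDC1 in male mouse embryonic stem cells derived from the inner cell mass of strain 129 and grown without feeders in serum and LIF. Its 10 samples were 1 Halo pull-down of RNA with YTHDC1 (RNA immunoprecipitation, RIP) and 1 input, both from Halo-Ythdc1 knockin cells and labelled total RNA, and 8 m6A samples labelled polyA RNA: 2 precipitates and 2 inputs of Mettl3-WT cells and 2 precipitates and 2 inputs of Mettl3-KO cells. METTL3 catalyses the methylation that makes m6A in messenger RNA. The labels do not say if replicates are separate cultures, nor if the knockout is 1 clone.

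The data are 3 peak lists that hold only positions: 12368 from m6A precipitation in the wild type, 6764 from the knockout and 30992 from RIP. No height, strand or value per replicate goes with them, so none of the differences below can be set against a spread between replicates, no test across samples exists, and the read depth is unknown. The intervals are exact Clopper-Pearson 95% intervals and cover counting error only. The knockout list is named in the label of 1 knockout precipitate, while the label of the other names the wild-type list, and knockout samples carry a cell type label of wild type. Which samples fed which list is therefore not settled. Of 10 stem cell markers 8 had a RIP peak (not Utf1 and Dppa5a), 7 a wild-type m6A peak (not Pou5f1, Dppa5a and Lin28a) and 6 a knockout peak. The shares over all coding genes were 41.6, 29.5 and 17.7%. Of the 8 fibroblast markers Col1a1, Col1a2, Col3a1, Dcn, Lum and Postn had no peak in any list, Thy1 held 1 knockout peak and Fn1 4 RIP peaks.

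The proteasome is the barrel-shaped protease that degrades ubiquitin-tagged proteins. Its core is a stack of rings built from alpha subunits (Psma genes), which gate the entrance, and beta subunits (Psmb genes), some of which carry the protease sites. The core is capped by a regulatory particle whose base holds a ring of ATPases (Psmc genes) that unfold the substrate, and whose lid (Psmd genes) removes the ubiquitin chain. Immune cells swap the catalytic beta subunits for inducible forms, and the thymus and the testis have forms of their own. In messenger RNA m6A usually lies near the stop codon and in long internal exons, and YTHDC1 binds it in the nucleus.

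The symbol rule took in 4 genes whose products are not subunits of the mature particle. Psmd5, Psmd9 and Psmd10 encode chaperones that assemble the base, and Psmc3ip encodes a cofactor of meiotic recombination. The promoter table gives a transcription start and strand for 33 of the 40 genes. It does not list Psma8, Psmb1, Psmb2, Psmb7, Psmc3, Psmd3 and Psmd7, and for these only the nearest end of the span is given. The starts that the m6A results turn on are those of 6 genes with a knockout m6A peak at the start that also overlapped a wild-type m6A peak or a RIP peak. Each is shown as 30 bases of the coding strand from RefSeq on GRCm38.p6, from 15 bases before the start, with the first transcribed base in capitals.
Psmd4: aagactgagttctttGattggtgatgagca
Psmc2: gggaagagaaagggaAgacaccagcggaag
Psmd2: gaggacaacgcgcgtGgccttctgggaaaa
Psmd5: tcagagaggcgctctGggaacctagtaggt
Psmd9: caagctccacccttcAtctgtttccgtact
Psmd14: ctccactccccggcgGactccaattggcgg
In genomic terms these windows are chr3:95042600-95042629 on the minus strand for Psmd4, chr5:21786732-21786761 on the plus strand for Psmc2, chr16:20651637-20651666 (plus) for Psmd2, chr2:34870948-34870977 (minus) for Psmd5, chr5:123228175-123228204 (plus) for Psmd9 and chr2:61711679-61711708 (plus) for Psmd14.

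Proteasome genes were found more often in the knockout m6A list than in the wild-type list. A gene was counted in a list when the midpoint of at least 1 peak lay in its span. The wild-type list held peaks in 7 of 40 proteasome genes (17.5%, 7.34 to 32.8%), against 29.5% of all protein-coding genes. The knockout list held peaks in 21 of 40 (52.5%, 36.1 to 68.5%), against 17.7% of all protein-coding genes. The order of the lists was thus opposite in the proteasome genes and in coding genes as a whole. Peaks in the knockout list and not the wild-type list were found for 17 genes (42.5%, 27 to 59.1%, against 6.63% of all coding genes), peaks in both for 4 (10%, 2.79 to 23.7%, against 11.1%) and peaks in the wild-type list alone for 3 (7.5%, 1.57 to 20.4%, against 18.4%). The YTHDC1 RIP list held peaks in 34 of 40 (85%, 70.2 to 94.3%), against 41.6% of coding genes. With only peaks above the median width of each list, the wild-type list held 2.5% of the proteasome genes and the knockout list 20%.

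**Figure D1:**
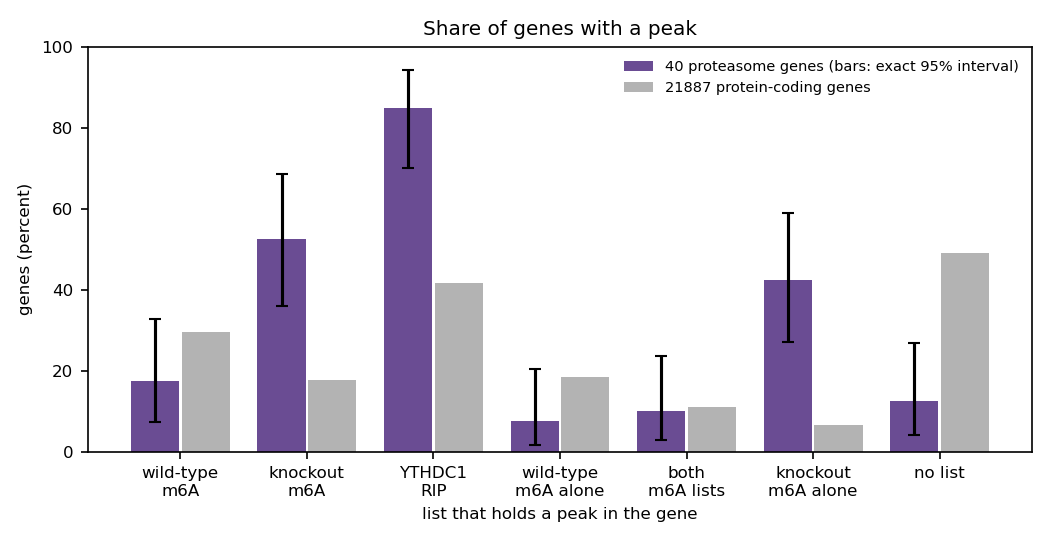
Share of genes in percent (vertical axis) with a peak in each list or combination of lists (horizontal axis), for the 40 proteasome genes (purple, error bars are exact 95% intervals of counting) and for all 21887 protein-coding genes (grey). The purple bar is above the grey one for the knockout m6A list (52.5 against 17.7%), the RIP list (85 against 41.6%) and the knockout list alone (42.5 against 6.63%), and below it for the wild-type m6A list (17.5 against 29.5%).

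Coding genes as a whole include genes that are silent in these cells, and the lists do not give expression. The shares were also taken over genes found in any of the 3 lists, a set that the lists themselves select. They were 7 of 35 proteasome genes (20%, 8.44 to 36.9%) against 57.7% for the wild-type list, 21 of 35 (60%, 42.1 to 76.1%) against 34.8% for the knockout list and 34 of 35 (97.1%, 85.1 to 99.9%) against 81.5% for the RIP list. On this basis 3 of 35 were in the wild-type list alone (8.57%, against 36%), 4 of 35 in both m6A lists (11.4%, against 21.8%) and 17 of 35 in the knockout list alone (48.6%, against 13%). The RIP share stood closer to that of the coding genes in this set, and the m6A shares kept their direction. A gene enters the set through a peak in the same lists that are compared, so these shares cannot serve as a separate check. Every gene with a wild-type peak stays in, and this selection alone raised the wild-type share of coding genes from 29.5 to 57.7%. The proteasome genes are of moderate length, with a median span of 11930 bp (2535 to 88683 bp) against 17169 bp for all coding genes. In coding genes with a span inside that range, 32.7% had a wild-type m6A peak, 20.3% a knockout m6A peak and 43.6% a RIP peak, with 20.2% in the wild-type list alone, 12.5% in both m6A lists and 7.82% in the knockout list alone. Expression, span and depth of the lists were not separated from these shares.

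By role, the wild-type m6A peaks lay in the regulatory particle and its chaperones. None of the 8 alpha subunit genes and none of the 11 beta subunit genes held a wild-type peak. Of the 6 ATPases 1 did (Psmc2), of the 3 other base subunits 1 (Psmd4), of the 8 lid subunits 4 (Psmd3, Psmd7, Psmd11 and Psmd13) and of the 3 chaperones 1 (Psmd5). The knockout peaks were spread over all roles: 2 of 8 alpha subunits, 4 of 7 constitutive beta subunits, 1 of 4 immune and thymic beta subunits, 5 of 6 ATPases, 3 of 3 other base subunits, 3 of 8 lid subunits, 2 of 3 chaperones and Psmc3ip. Over all coding genes the share was 29.5% for the wild-type list and 17.7% for the knockout list. The role groups are small, and the difference between them was not tested.

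**Figure D2:**
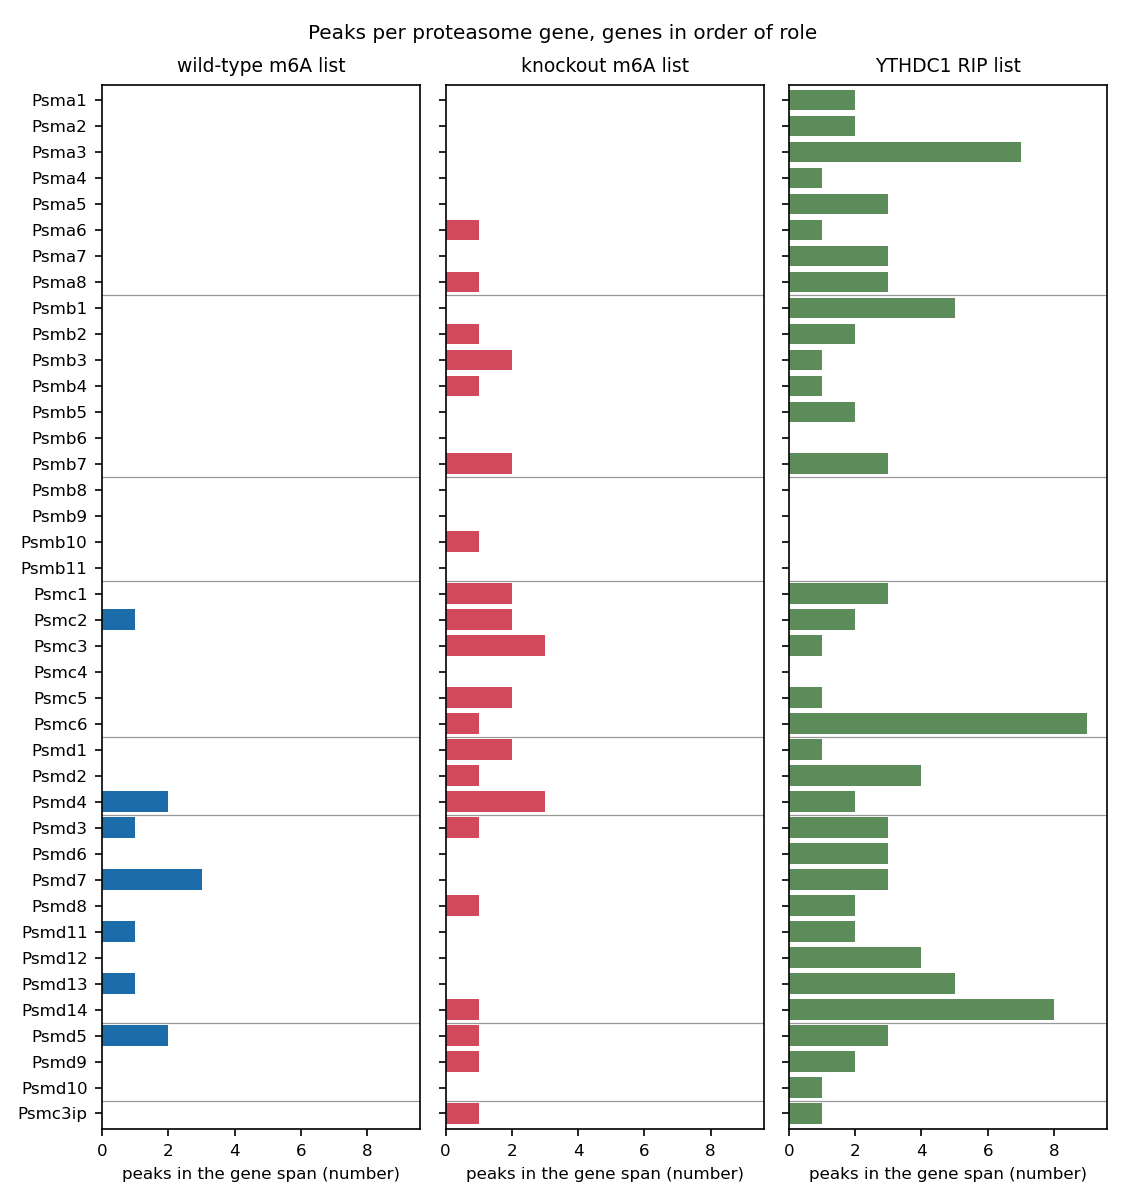
Number of peaks (horizontal axes) in the span of each of the 40 proteasome genes (rows, grouped by role with grey lines: alpha ring, constitutive beta ring, immune and thymic beta ring, ATPases, other base subunits, lid, chaperones, Psmc3ip) in the wild-type m6A, knockout m6A and YTHDC1 RIP lists. The wild-type panel is empty for all Psma and Psmb genes, the knockout panel reaches 3 peaks in Psmc3 and Psmd4, and the RIP panel reaches 9 peaks in Psmc6.

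The 11 wild-type peaks in proteasome genes were narrow, with widths of 150 to 500 bp and a median of 250 bp against 400 bp over the whole list. Only 2 of them exceeded the list's median. Both were in Psmd7, a lid subunit that pairs with the deubiquitinase, which held the most wild-type peaks, 3, and no knockout peak. These lay on chromosome 8 at 107580401 to 107580900 (500 bp), 107581001 to 107581450 (450 bp) and 107582301 to 107582500 (200 bp), with midpoints 270, 845 and 2020 bp from the nearest end of the span. Psmd11, a lid subunit, held 1 wild-type peak of 250 bp (chromosome 11, 80472051 to 80472300), 1072 bp before the annotated 3′ end of the gene, and no knockout peak. Psmd13, another lid subunit, held 1 wild-type peak of 350 bp (chromosome 7, 140891801 to 140892150) in the middle of the gene, at 0.590 of the span, and no knockout peak. An annotated pseudogene lies at the same place, so this peak cannot be assigned to Psmd13 alone.

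Psmd4, the ubiquitin receptor of the base, showed the same 2 sites in both genotypes. At its start the peaks of both lists had identical bounds (chromosome 3, 95042451 to 95042650, 200 bp), with the midpoint 63 bp after the start shown above. In the gene body, at 0.591 of the span, the wild-type peak of 200 bp (95036651 to 95036850) lay inside the knockout peak of 300 bp (95036551 to 95036850). Another knockout peak of 250 bp (95035751 to 95036000) overlapped no wild-type peak. In Psmc2, an ATPase, the wild-type peak (chromosome 5, 21786701 to 21786850, 150 bp) lay inside a 250 bp knockout peak (21786701 to 21786950), both over the inner of its 2 annotated starts. A 200 bp knockout peak (21795051 to 21795250) lay further in. In Psmd3, a lid subunit, a 300 bp wild-type peak (chromosome 11, 98682501 to 98682800) lay inside a 500 bp knockout peak (98682501 to 98683000). Both crossed the end of its span.

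Psmd5 held peaks of both genotypes at opposite ends. Its wild-type peaks of 400 bp (chromosome 2, 34852501 to 34852900) and 250 bp (34854151 to 34854400) lay 613 and 2188 bp before the annotated 3′ end. The knockout peak of 350 bp (34870651 to 34871000) lay over the start, with its midpoint 136 bp after it. Psmd5 is thus counted in both lists although its peaks did not overlap. In all, 4 of the 11 wild-type peaks overlapped a knockout peak (36.4%, 10.9 to 69.2%), against 11.7% of wild-type peaks in all coding genes, and 4 of the 31 knockout peaks overlapped a wild-type peak (12.9%, 3.63 to 29.8%), against 21.3%. The second interval includes the share over all coding genes, as does the first, and both are wide with so few peaks.

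**Figure D3:**
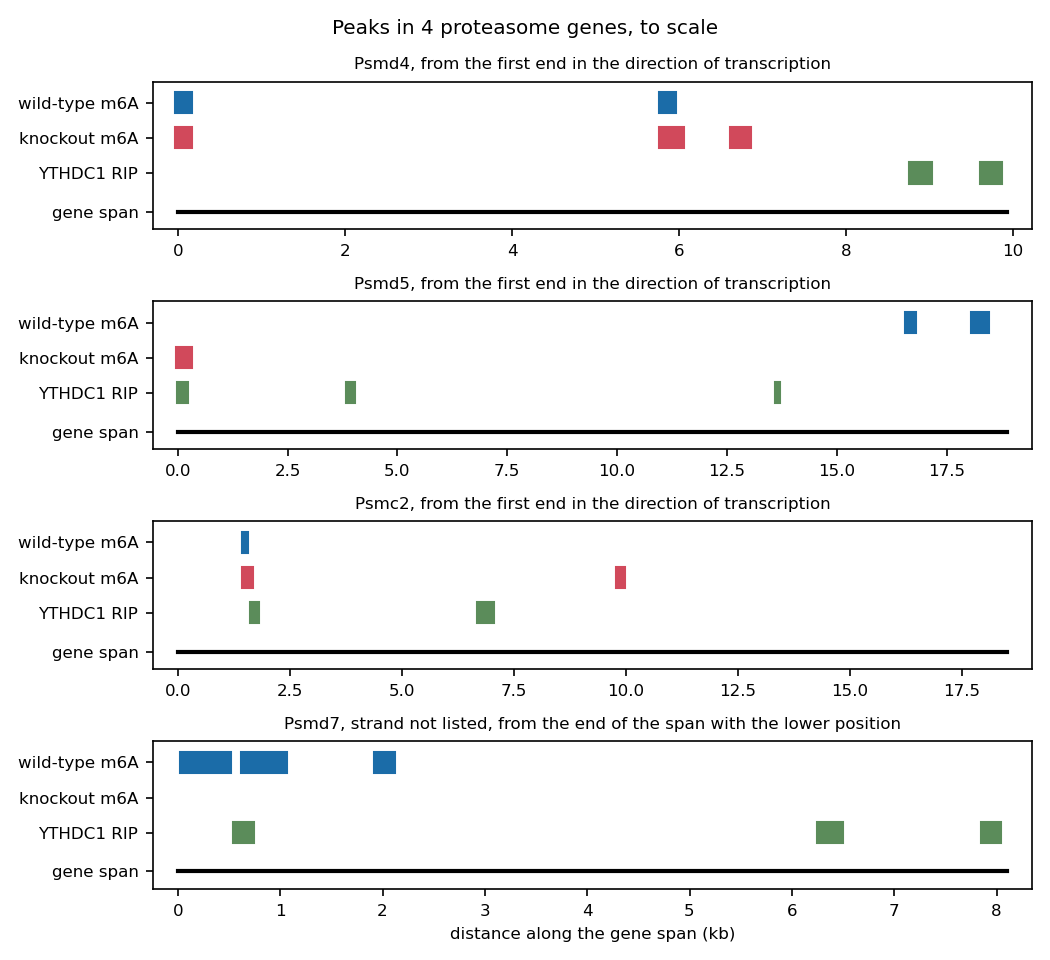
Peaks of the wild-type m6A (blue), knockout m6A (red) and YTHDC1 RIP (green) lists along the spans (black) of Psmd4, Psmd5, Psmc2 and Psmd7, to scale, with distance in kb along the horizontal axes. Psmd4 and Psmc2 show m6A peaks of both genotypes at the same sites, Psmd5 shows them at opposite ends, and Psmd7 has 3 wild-type peaks and no knockout peak.

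The knockout m6A peaks were also counted at annotated starts. Among the 33 genes with a listed start, 11 held a knockout peak with its midpoint within 200 bp of one (33.3%, 18 to 51.8%), against 11.2% of the 17492 coding genes with a listed start. This share moves with the share of genes that had a knockout peak at all. Only Psmd4 and Psmc2 held a wild-type peak there (6.06%, 0.743 to 20.2%, against 2.38%). Counted by peak, 11 of 23 knockout peaks in these genes lay at a start (47.8%, 26.8 to 69.4%), against 37.6% of knockout peaks in all coding genes, a share inside the interval. In the first 10% of the span lay 14 of the 23 (60.9%, 38.5 to 80.3%, against 44.1%) and in the last 10% lay 2 (8.7%, 1.07 to 28%, against 9.36%). Of the 7 wild-type peaks in genes with a listed strand, 2 lay in the first and 2 in the last 10% (28.6% each, 3.67 to 71%), against 8.41 and 43.3% of wild-type peaks in coding genes.

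**Figure D4:**
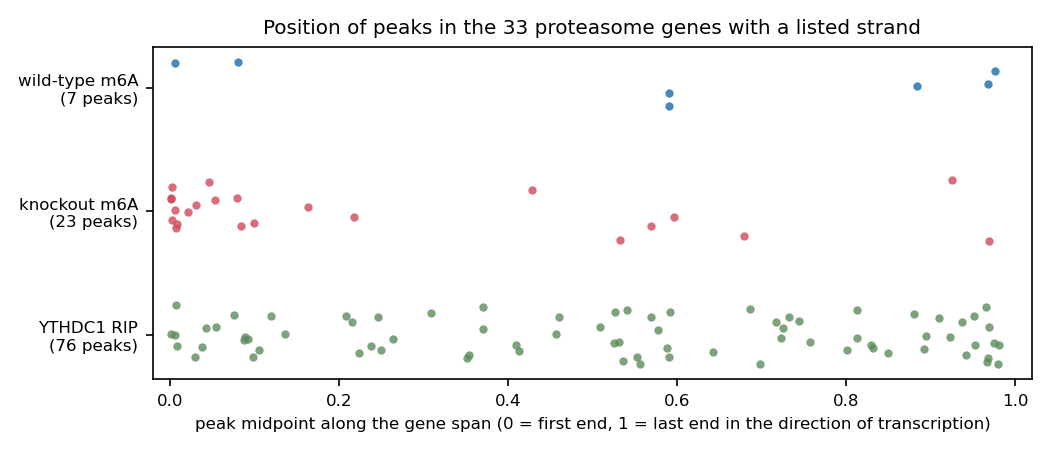
Position of each peak midpoint along its gene (horizontal axis, 0 at the first and 1 at the last end of the span in the direction of transcription) for the 33 proteasome genes with a listed strand, 1 point per peak, with a row each for the lists of wild-type m6A (7 peaks), of m6A in the knockout (23 peaks) and of RIP (76 peaks). Points are spread vertically only to separate them. Of the knockout points 14 lie in the first 10% of the span, while the RIP points are spread over the whole length, with 13 in the first and 13 in the last 10%.

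In the core particle the knockout peaks at starts were those of Psma6, an alpha subunit, and of the beta subunits Psmb3 and Psmb4. Psmb3 held a 200 bp knockout peak (chromosome 11, 97703351 to 97703550) whose midpoint lay 16 bp after the start, and a second of 100 bp (97703701 to 97703800) at 316 bp. Psmb4 held 1 of 200 bp (chromosome 3, 94886801 to 94887000) at 57 bp. Psma6 held 1 of 300 bp (chromosome 12, 55398751 to 55399050), 75 bp after the inner of its 2 annotated starts and far inside the span. Psmb2, whose strand is not listed, held 1 of 150 bp (chromosome 4, 126677601 to 126677750) at 38 bp from the end of its span, and Psma8, the alpha subunit of the testis form, 1 of 150 bp (chromosome 18, 14706151 to 14706300) at 90 bp. Psmb7, which carries the trypsin-like site, held 2, of 200 and 300 bp, at 101 and 551 bp from the end of its span.

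The ATPases of the base held 10 knockout peaks, in 5 of 6 genes. Psmc5 held a 200 bp peak (chromosome 11, 106256101 to 106256300) at 15 bp after its start and a 250 bp peak (106256751 to 106257000) at 690 bp. Psmc6 held 1 of 200 bp (chromosome 14, 45329751 to 45329950) at 26 bp. Psmc3 held 3, of 150, 250 and 200 bp, at 309, 609 and 984 bp from the nearest end of the span. Psmc1 held 2, of 200 and 250 bp, at 2148 and 2873 bp from its start, and a further 200 bp knockout peak (chromosome 12, 100110101 to 100110300) straddled the start with its midpoint just outside the span, so that it was not counted. Psmc4 had no peak in any list.

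Among the Psmd genes, Psmd2, the large scaffold of the base, held a 350 bp knockout peak (chromosome 16, 20651601 to 20651950) 123 bp after its listed start, and Psmd14, the deubiquitinase of the lid, 1 of 250 bp (chromosome 2, 61711701 to 61711950) at 131 bp. The chaperone gene Psmd9 held 1 of 250 bp (chromosome 5, 123228251 to 123228500) at 185 bp. Psmd8, a lid subunit, and Psmc3ip held 1 each just beyond the 200 bp limit, at 297 bp (350 bp wide) and 259 bp (550 bp wide, the widest knockout peak in any of the genes). Psmd1, the other large scaffold of the base, and Psmb10, an inducible beta subunit, had theirs away from the start: 2 peaks of 250 and 200 bp at 5569 and 2294 bp before the 3′ end of Psmd1, and 1 of 250 bp at 1516 bp from the start of Psmb10. The median width of the 31 knockout peaks was 250 bp (100 to 550 bp), equal to that of the whole list.

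At several starts the neighbouring gene blurs the assignment, since the peaks have no strand. Knockout peaks at the starts of Psma4 (200 bp, midpoint 8 bp before the start) and Psma2 (300 bp, 291 bp before it) were counted for other coding genes there, AY074887 and Mrpl32. The same held for a 300 bp peak before the outer start of Psmc2, counted for Dnajc2, and a 350 bp peak before Psmc5, counted for Ftsj3. A 100 bp knockout peak with its midpoint 27 bp before the start of Psmd12 fell outside every span. Counting any overlap with the span added Psma4 and Psmd12 and gave a knockout share of 57.5%, against 18.6% of coding genes counted the same way. When a peak counted for every start within 200 bp of its midpoint, whichever gene it was assigned to, 14 of the 33 genes had a knockout peak at a start (42.4%, 25.5 to 60.8%, against 12.4% of coding genes), with Psma4, Psmc1 and Psmd12 added.

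The first bases varied among the starts. An A next to the cap of a messenger RNA can carry a methylation of its own, which METTL3 does not write. The first transcribed base was A at 3 of the 11 proteasome starts with a knockout peak assigned to their gene (27.3%) and at 7 of the 24 others (29.2%). Of these others, the starts of Psma4, Psmc1 and Psmd12 and the outer start of Psmc2 had a knockout peak within 200 bp that was not assigned to the gene. Counted by position alone, A was first at 4 of 15 starts with a knockout peak (26.7%) and 6 of 20 without (30%). Over all coding genes it was A at 31.3% of the 2133 starts with a knockout peak assigned to their gene and 38% of the 19130 others. G was the most frequent first base at the proteasome starts with and without a peak, at 6 of the 11 (54.5%) and 12 of the 24 (50%). Over all coding genes it was G at 46.5% of the starts with a knockout peak and 38.5% of the others. By position alone G was first at 9 of 15 (60%) and 9 of 20 (45%). The letters GGAC, the core of the usual METTL3 site, were found on the coding strand in the first 50 transcribed bases of 1 of the 11 (9.09%) and of 4 of the 24 (16.7%), against 20% of all coding starts. By position alone they were found at 2 of 15 starts with a knockout peak (13.3%) and 3 of 20 without (15%). On the opposite strand, where they read GTCC, they were found at 2 of 11 (18.2%) and 4 of 24 (16.7%), against 18.8%. RefSeq starts can differ from those used in these cells, and no match says only that these letters are not in this window.

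YTHDC1 RIP peaks were found in nearly all of the genes outside the immune and thymic beta subunits. All 8 alpha subunit genes, 6 of 7 constitutive beta subunit genes, 5 of 6 ATPase genes, all 3 other base genes, all 8 lid genes, all 3 chaperone genes and Psmc3ip held at least 1. None of the 4 immune and thymic beta subunit genes (Psmb8, Psmb9, Psmb10 and Psmb11) did. Over all coding genes 41.6% held a RIP peak. These 4 genes are short, with a median span of 3754 bp against 11930 bp over the 40 genes, and the part of the span was not tested. Psmb8, Psmb9, Psmb11, Psmb6 and Psmc4 had no peak in any list (5 of 40, 12.5%, 4.19 to 26.8%, against 49% of all coding genes). Psmb6 and Psmc4 encode constitutive subunits, and a list without a peak does not show that the RNA is absent. Of the 6 annotated proteasome pseudogenes Psma5-ps held 1 RIP peak and the others none in any list.

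The number of RIP peaks varied widely. Psmc6 held 9, Psmd14 8, Psma3 7 (some of them also in the span of an annotated long non-coding gene), Psmb1 and Psmd13 5 each, and Psmd2 and Psmd12 4 each. The median over the 34 genes with any was 2, and 9 genes held 1. Most were narrow: their median width was 210 bp, and that of the whole list 203 bp. The exception was a peak of 4384 bp in Psma8 (chromosome 18, 14733692 to 14738075), in the middle of a 56167 bp span. The next widest were in Psma2 (432 bp), Psmc6 (394 bp), Psmd13 (382 bp), Psmc2 (379 bp) and Psma7 (336 bp). The span was 19252 bp in Psmc6, 88683 bp in Psmd14, 26595 bp in Psma3 and, with 1 RIP peak, 74677 bp in Psmd1, and the part of the span in these numbers was not tested.

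The RIP peaks were then set against the m6A peaks. Of the genes with a listed start 6 of 33 held a RIP peak within 200 bp of it (18.2%, 6.98 to 35.5%), against 6.99% of coding genes. This share moves with the share of genes that had a RIP peak at all. Counted by peak, 6 of 76 RIP peaks lay at a start (7.89%, 2.95 to 16.4%). The share was 7.01% in coding genes with a listed start, inside the interval. A RIP peak and no m6A peak were found in 11 of 40 genes (27.5%, 14.6 to 43.9%, against 14.9%). Of the 96 RIP peaks 12 overlapped an m6A peak of either list by at least 1 bp (12.5%, 6.63 to 20.8%), against 12.6% in all coding genes. Of the 96, 10 overlapped a knockout peak (10.4%, 5.11 to 18.3%, against 6.44%) and 3 a wild-type peak (3.12%, 0.649 to 8.86%, against 7.32%), with the Psmd3 peak in both counts. Both intervals include the share over all coding genes. The genes held 31 knockout and 11 wild-type peaks, and the 2 counts move with these numbers. The 3 on wild-type peaks were in Psmd3, Psmd7 and Psmd13.

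Seen from the m6A lists, 10 of 31 knockout peaks overlapped a RIP peak (32.3%, 16.7 to 51.4%, against 21.6%) and 3 of 11 wild-type peaks did (27.3%, 6.02 to 61%, against 13.1%). At annotated starts 5 of 11 knockout peaks did (45.5%, 16.7 to 76.6%, against 26.3%), and away from them 2 of 12 (16.7%, 2.09 to 48.4%, against 19.2%). The 5 were those of Psmc2, Psmd2, Psmd5, Psmd9 and Psmd14, whose starts are shown above. At Psmd14 the RIP peak ran from 61711699 to 61711899, 2 bp before the knockout peak began, and at Psmd9 from 123228243 to 123228453, 8 bp before it. At Psmd2 the RIP peak (20651644 to 20651920) lay wholly inside the knockout peak. The other overlaps were in Psmb2, Psmc1, Psmc3, Psmd3 and Psmd8. At gene level 20 of 40 genes had both a RIP and a knockout m6A peak (50%, 33.8 to 66.2%, against 13.7% of all coding genes), and 16 of these had no wild-type m6A peak (40%, 24.9 to 56.7%, against 4.86%). All 7 genes with a wild-type m6A peak had a RIP peak (17.5% of the 40, 7.34 to 32.8%, against 21.8%). These joint shares move with the shares of genes in each list. A knockout peak was found in 52.5% of the proteasome genes against 17.7% of coding genes, and a RIP peak in 85% against 41.6%. Whether peaks of 2 lists fall in the same genes beyond this was not tested. The RIP samples were total RNA and the m6A samples polyA RNA, and the part of this difference in the counts was not tested.

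Other genes of the pathway were counted in the same way. Of 30 activators, assembly factors, regulators and shuttle factors, 8 had a wild-type m6A peak (26.7%, against 29.5% of all coding genes), 12 a knockout m6A peak (40%, against 17.7%) and 23 a RIP peak (76.7%, against 41.6%). Nfe2l1, the transcription factor that raises proteasome genes when the proteasome is inhibited, held 2 wild-type peaks, the wider of 1750 bp, 1 knockout peak of 250 bp and 1 RIP peak. Its relative Nfe2l2, the regulator of the oxidative stress response, held a wild-type peak of 1150 bp and 2 knockout peaks. The shuttle factors Ubqln2 and Ubqln4, which bring ubiquitinated proteins to the proteasome, held 2 wild-type peaks each, the widest of 1350 and 1150 bp, and no knockout peak. These 4 widths lie above the 500 bp of the widest wild-type peak in a proteasome gene.

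The remaining wild-type peaks in this set were narrower and lay in the inhibitor gene Psmf1 (350 bp, no knockout peak), in Zfand5 (2 peaks, the wider 250 bp, no knockout peak), in the ubiquitin ligase gene Ube3c (400 bp, with 1 knockout peak of 150 bp) and in Psme3ip1 (450 bp, with 4 knockout peaks). Knockout peaks without a wild-type peak were found in the activator genes Psme1, Psme3 and Psme4, in the assembly factor gene Pomp (2), in the ubiquitin receptor gene Adrm1 (2), in the deubiquitinase gene Usp14, in Ddi2, the protease that activates the product of Nfe2l1, and in the shuttle factor gene Rad23b. Of the 25 with a listed start, 9 had a knockout peak within 200 bp of it, against 11.2% of coding genes with a listed start. None had a wild-type peak there, against 2.38%, and at so low a share none among 25 does not set these genes apart.

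Other complexes give a scale for these counts. The COP9 signalosome and eIF3 share their architecture with the proteasome lid. Of 10 signalosome genes 5 had a wild-type, 3 a knockout and 6 a RIP peak, and of 12 eIF3 genes 3, 6 and 9. The CCT chaperonin, another barrel-shaped machine, had 1, 2 and 8 of 8. Cytosolic ribosomal protein genes, with a median span of 3170 bp, had 5, 15 and 55 of 86, and ubiquitin-specific protease genes, with a median span of 50772 bp, 36, 16 and 34 of 50. The knockout count exceeded the wild-type count in the proteasome, eIF3, CCT (2 against 1 gene) and ribosomal protein genes. It fell below it in the signalosome and ubiquitin-specific protease genes. In that order knockout shares were 52.5, 50, 25, 17.4, 30 and 32%, against 17.7% of all coding genes. Wild-type shares were 17.5, 25, 12.5, 5.81, 50 and 72%, against 29.5%. RIP shares were 85, 75, 100, 64, 60 and 68%, against 41.6%. The ribosomal protein knockout share was thus near that of all coding genes. Whether these sets differ was not tested.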

How the data were processed

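The authors deposited 3 peak lists with chromosome, start and end of each peak in bp and no score. The submitters' processing notes name mm10 as the build and, among the tools, STAR 2.7, HISAT2 2.2.0, SAMtools 1.9 and MACS2 2.1.2. The peak threshold, whether replicates were pooled and the step each tool served are not stated there. Per the labels' protocols the RIP used neither nuclease nor RNA fragmentation, which limits how closely a RIP peak marks a bound site, and Halo-GFP cells served as its control, which are not analysed here. All m6A peaks lie on a 50 bp grid and 0.513% of the RIP peaks do, a difference in how the lists were made.

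Spans came from the RefSeq table of GRCm38.p6 (34614 coding and long non-coding genes), and starts and strands from its promoter table, which reaches from 250 bases before to 50 after each start. A peak went to the gene whose span held its midpoint, coding genes first and then the shortest. Peaks overlapped from 1 bp. Assignment and overlap were tested on simulated peaks. Python 3.11.15, pandas 2.3.3 and SciPy 1.17.1 were used.

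Every member with an m6A peak, those with the most or widest RIP peaks and those with no peak were named, and likewise pathway genes with an m6A peak. The members and gene lists were chosen with earlier results of these data known. The use of listed starts and the count at starts by position alone were added after seeing the files. So was the background of coding genes with a span inside the range of the proteasome genes. No set test was run.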

Additional observations from a re-analysis of the deposited data

How the results depend on the processing

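Of 53 recomputed values, 42 stayed within the interval of the reported share or within 1.5 times the reported count, and 11 did not. With so few peaks the intervals are wide, so staying within them does not show that a value is stable. The share of knockout peaks near an end, 38.7%, was 22.6% within 100 bp and still inside its interval. Most of the 11 came from keeping only peaks above the median width of each list, which leaves 2 wild-type and 8 knockout peaks in proteasome genes. Then 2.5% of the genes had a wild-type peak (Psmd7, against 19.2% of coding genes) and 20% a knockout peak (against 7.66%). On this setting 8 genes had a peak in the knockout list alone, 1 in the wild-type list alone and 0 in both. The overlapping share was 0% in either direction, and 0% of the 2 wild-type peaks lay near an end of the span. The matching shares over all coding genes were not taken with the width limit, so these values cannot be set against them. Without the width limit, 2 of 11 wild-type peaks lay within 200 bp of an end (18.2%, 2.28 to 51.8%, against 4.53% in all coding genes). Of the knockout peaks 12 of 31 did (38.7%, 21.8 to 57.8%, against 29.4%). The share of RIP peaks near an end, 12.5% within 200 bp (against 5.91% in all coding genes), was 2.08% within 100 bp (against 1.23%). Within 500 bp it was 21.9% (against 14.2%). With peak edges up to 500 bp apart counted as touching, 51.6% of knockout peaks met a RIP peak. The share of knockout peaks in all coding genes was not taken on this setting, so this value stands without a comparison. No paired analysis was possible because the peak lists hold no value per replicate, and no replicate could be left out for the same reason. The number of proteasome genes limits every share, and the read depth is unknown.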
